A study of Mus musculus with 12 samples.

Results

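Tcf7, Lef1, Bach2, Id3, Bcl6, Slamf6, Foxo1 and Satb1 were followed as 8 of the 32285 genes in the count files. They were chosen by name, as factors that mark naive, memory and progenitor T cells. Their levels in these data were not part of the rule, though earlier results of these data were known. They were measured by single-cell RNA sequencing of CD8 T cells from NOD/ShiLtJ mice, an inbred strain that develops autoimmune diabetes, with paired sequencing of the T cell receptor (TCR). Islet and spleen cells of 10 mice aged 10 to 15 weeks were pooled in each of 2 rounds, and CD45.1+ CD8+ cells without CD4, B220 and CD11b were sorted by binding of a tetramer of the Kd molecule with NRP-V7, a mimic of a peptide of the beta cell protein IGRP. No group carried a transgene or was treated. The 3 groups were tetramer-negative islet cells (islet IGRP-), tetramer-positive islet cells (islet IGRP+) and tetramer-positive spleen cells (spleen IGRP+), each with 1 library per round, so n = 2 in each group. No tetramer-negative spleen library was analysed here, and the mouse of origin of a cell is unknown within a pool. In fits without a block, p-values measure the spread between the 2 pools. In fits with the round or library as a block, overall differences between pools are taken out. Those p-values measure how far a change varies between them. In both kinds of fit the spread of a gene is estimated partly from the other genes. Spleen cells were first enriched for CD8 T cells with beads, whereas islets were released by collagenase and their cells kept for a time in warm medium, so tissue and handling cannot be told apart. The study's text adds that the spleen cells were gated on CD44, a marker of antigen-experienced cells, and gives no such gate for islets, so this gate and the tissue cannot be told apart either.

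Tcf7 encodes TCF-1 and Lef1 its close relative LEF-1, high mobility group factors that bind the same DNA motif, partner with beta-catenin and Groucho/TLE corepressors, and are high in naive T cells and in cells that can renew a response. Bach2 is a repressor that restrains effector genes, Bcl6 a repressor that opposes Blimp-1 (Prdm1), and Id3 an inhibitor of E proteins that is kept in memory precursors. Foxo1 activates genes of lymph node homing and survival, Satb1 organizes chromatin in developing and naive T cells, and Slamf6 encodes a surface receptor, not a transcription factor, by which TCF-1-positive progenitors are often sorted. In chronic infection, tumours and diabetes, CD8 T cells that keep TCF-1 are known to supply the effector and exhausted cells that lack it.

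The libraries kept 24117 of 26818 cells, from 1204 to 8932 per library, with 5880696 to 40469961 UMIs (unique molecular identifiers, each 1 captured transcript) per library. The median cell held 3793 to 4216.5 UMIs in islets and 2590 to 2764.5 in spleen. A UMI of at least 1 of 6 CD8 T cell markers was present in 99.3% to 99.9% of cells, whereas a UMI of the CD4 T cell list was present in at most 0.403%. The summed level of 5 B cell genes was 1.53 to 4.87 CPM (UMIs scaled to a library total of 1000000) in islets and 9.37 and 11.4 in spleen, and that of 6 myeloid genes was 15.2 to 31.4 CPM, highest in islet IGRP+ Round 2. The summed level of 9 exocrine pancreas genes was 57.0 to 384 CPM in islets and 5.62 to 6.51 in spleen. Exocrine genes were thus far higher in islets and highest in islet IGRP- Round 2, and their part in the results below was not tested. The paper removed a cluster of pancreatic exocrine cells from its islet data, whereas no cells were left out on that ground here. Pairs of libraries shared 2 to 64 cell barcodes, and in 0 cases did such a pair carry the same clone.

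All 8 genes had an entry in RefSeq's promoter table (build GRCm38.p6), which gives the bases around a transcript start. The upstream sequences of Lef1 and Satb1 are shown because these 2 members alone were called lower in clones of 10 or more cells in both tissues, with or without a block for the library, as described below. Each run holds the 250 bases before the start, on the strand of the gene, with CpG dinucleotides in capitals. Lef1 lies at chr3:131110471-131224356 on the plus strand in the GENCODE annotation of GRCm38, and its window covers chr3:131110073-131110322, where RefSeq starts the transcript 148 bases before GENCODE does. Satb1 lies at chr17:51736187-51833290 on the minus strand, and its window covers chr17:51833291-51833540.
Lef1: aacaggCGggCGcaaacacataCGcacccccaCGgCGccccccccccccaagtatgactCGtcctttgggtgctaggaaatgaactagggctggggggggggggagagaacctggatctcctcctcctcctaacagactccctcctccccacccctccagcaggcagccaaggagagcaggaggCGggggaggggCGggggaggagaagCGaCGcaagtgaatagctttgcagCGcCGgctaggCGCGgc
Satb1: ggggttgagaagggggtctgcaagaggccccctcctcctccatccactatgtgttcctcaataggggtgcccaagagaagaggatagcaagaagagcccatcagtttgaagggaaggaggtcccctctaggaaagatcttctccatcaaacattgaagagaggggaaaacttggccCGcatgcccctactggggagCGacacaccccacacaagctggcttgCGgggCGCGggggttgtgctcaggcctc
The Lef1 run held 14 CpG and the Satb1 run 5, against a median of 6 over the 32851 promoters of the table. Windows of other starts held 5 to 11 CpG for Lef1 and 3 to 41 for Satb1. The 41 lay in the Satb1 window 643 bases from the annotated start. Over the full 300 bases of the windows shown, the GC content was 67.3% for Lef1 and 59.0% for Satb1, with a median of 52.7%. The windows nearest to each of the 8 annotated starts were searched on both strands for the TCF and LEF motifs CTTTGAA and CTTTGAT, the FOXO motif GTAAACA and the RUNX motif TGTGGTT, and 0 matches were found. Of all promoters, 8.65%, 3.65% and 5.27% held a match. The nearest Tcf7 window may run into coding sequence of a longer isoform, and the other Tcf7 window, 419 bases from the annotated start, held 1 FOXO match. These letters are thus not in the nearest windows, which says nothing on binding elsewhere. The nearest Bach2 window lies 178631 bases from the annotated start of the gene and stands for another start. Antisense genes overlap Tcf7, Lef1, Bach2, Slamf6 and Foxo1 in the annotation, and the protein-coding gene Gm37419 overlaps Bcl6 on the other strand. Bach2it1 overlaps Bach2 on the same strand and is counted as a gene of its own. Whether reads of such genes were kept apart was not tested.

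The levels below are in CPM, the UMIs of a gene divided by all UMIs of the kept cells of a library and multiplied by 1000000, and since the libraries read the 5′ end of a transcript, they need no correction for length. A library is the sum of many cells, so fewer cells that express a gene and less RNA per cell cannot be told apart in these levels.

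Tcf7 stood at 146 and 167 CPM in islet IGRP- (Rounds 1 and 2), at 70.1 and 94.6 in islet IGRP+ and at 237 and 347 in spleen IGRP+. The 3 groups did not overlap, with spleen on top and islet IGRP+ at the bottom. Slamf6 followed the same order, with 76.4 and 82.5 in islet IGRP-, 49.0 and 71.7 in islet IGRP+ and 147 and 195 in spleen IGRP+. Its 2 islet groups were close, and the means of 79.4 ± 4.3 and 60.3 ± 16.0 (SD, n = 2) were nearer to each other than to the spleen mean of 171 ± 34.

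Lef1 had another order. It reached 247 and 220 CPM in islet IGRP- and 222 and 158 in spleen IGRP+, but only 28.7 and 26.6 in islet IGRP+. Islet IGRP+ therefore lay far below both other groups, which overlapped. Id3 was a spleen gene among these libraries, at 72.1 and 81.6 in spleen IGRP+ against 16.3 and 16.3 in islet IGRP- and 12.4 and 12.3 in islet IGRP+. The spread between rounds was smallest for Id3 in the islets, with SDs of 0.048 and 0.095.

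Satb1 was the most abundant of the 8 in islet IGRP-, at 278 and 467 CPM, and stood at 99.3 and 193 in islet IGRP+ and at 96.4 and 128 in spleen IGRP+. Bach2 was likewise highest in islet IGRP-, at 61.1 and 107, against 15.3 and 39.6 in islet IGRP+ and 20.2 and 32.4 in spleen IGRP+. For both genes the islet IGRP+ and spleen libraries overlapped, and islet IGRP- lay above them in both rounds.

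Foxo1 was measured at 171 and 250.7 CPM in islet IGRP-, 87.6 and 211 in islet IGRP+ and 84.9 and 145 in spleen IGRP+, so islet IGRP+ overlapped both other groups while spleen lay below islet IGRP-. Bcl6 was the rarest of the 8 in the spleen, at 3.64 and 10.3, with 18.6 and 37.5 in islet IGRP- and 15.3 and 64.7 in islet IGRP+. The islet IGRP+ Round 2 library, highest in Bcl6, was also highest in the myeloid genes (31.4 CPM, against 18.9 in Round 1), and their part in the Bcl6 values was not tested. Bcl6 was 2.01, 4.22 and 2.82 times as high in Round 2 as in Round 1 in islet IGRP-, islet IGRP+ and spleen IGRP+. Bach2, Foxo1 and Satb1 were also higher in Round 2 in every group, by 1.33 to 2.59 times, as were Tcf7 and Slamf6, by at most 1.46 times, whereas Lef1 was lower in Round 2 in every group, at 0.713 to 0.924 times Round 1. The rounds differed in mice and in the length of the sequenced reads, and the part of each cannot be told apart.

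**Figure D1:**
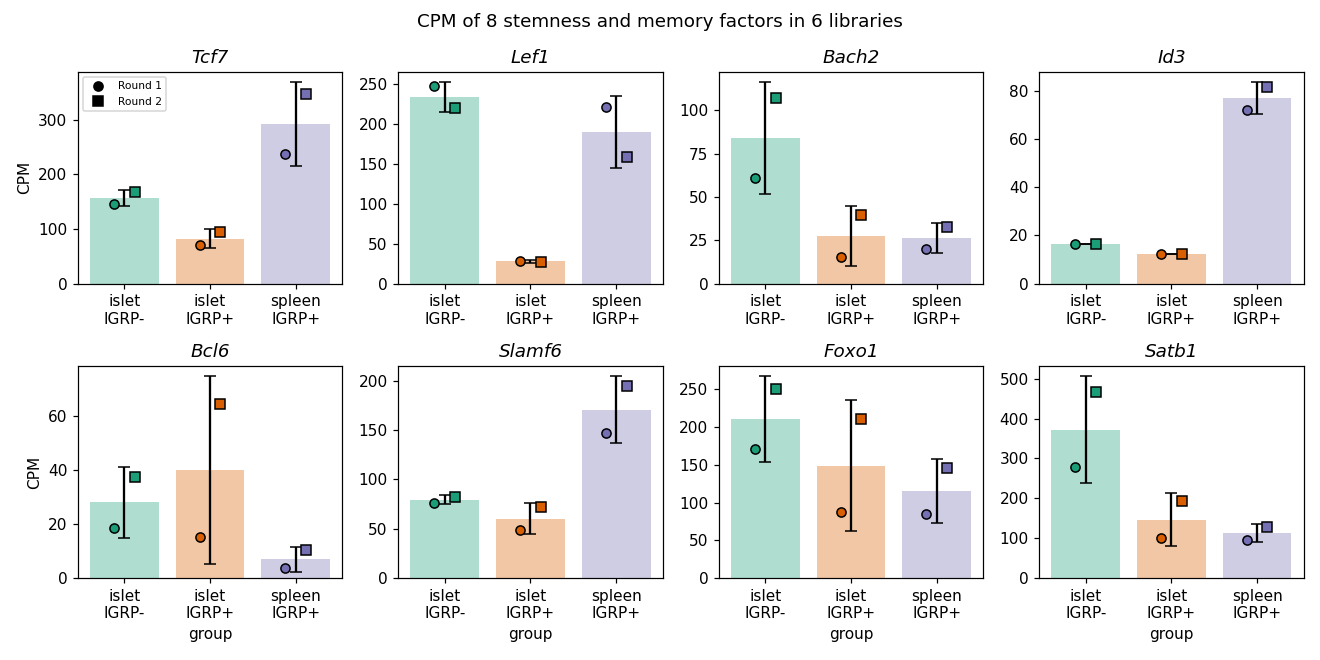
Levels of the 8 genes in the 6 libraries, in CPM on linear axes that start at 0. Bars give the mean of a group and whiskers the SD over 2 libraries, and points show each library (circles Round 1, squares Round 2); Tcf7, Slamf6 and Id3 are highest in spleen IGRP+, Satb1 and Bach2 in islet IGRP-, and Lef1 is low in islet IGRP+ alone.

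The share of cells with a UMI was compared after each cell was thinned at random to 1000 UMIs, which left out the 26 to 100 cells per library that were shallower. After thinning, Tcf7 was detected in 13.7% and 14.5% of islet IGRP- cells, 5.94% and 8.17% of islet IGRP+ cells and 20.4% and 28.7% of spleen IGRP+ cells. Lef1 was detected in 20.3% and 18.9%, 2.04% and 2.44%, and 17.6% and 12.8% of cells in the same order. The shares thus gave the same orders as the levels for both genes. Satb1 had the highest share in islet IGRP-, at 23.4% and 35.2%, and Slamf6 was found in 14.0% and 16.0% of spleen IGRP+ cells against 5.52% to 7.85% in the islets. Id3 was found in 5.82% and 6.87% of spleen cells but in 0.77% to 1.70% of islet cells.

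Without thinning, the shares were higher, for Tcf7 39.4% and 42.7% in islet IGRP-, 20.2% and 26.3% in islet IGRP+ and 43.8% and 54.9% in spleen, since deeper cells show more genes. Free RNA in a droplet can also give a UMI. The exocrine cells of the islet libraries, which should lack these genes, were not set apart to measure it. A bound for Lef1 is its share in expanded islet IGRP- clones, 2.93% and 1.85% of thinned cells at a median depth of 4694 and 4492.5 UMIs, against 33.5% and 31.2% of single-cell clones of the same libraries at a median of 3811 and 3731. The Lef1 shares of islet IGRP+ lay at that level and are not read as expression in a set of cells. No such bound was set for the other genes, and low shares, such as those of Id3 in islets, may hold free RNA.

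The first comparison asked how tetramer-positive islet cells differed from the tetramer-negative cells of the same islets. Lef1 was the 1 member that passed the test, and it fell by 3.08 on the log2 scale (SE 0.32, 8.45-fold lower; adjusted p = 0.0231, edgeR quasi-likelihood test). Of 11277 genes tested, 134 passed (1.19%), 17 higher and 117 lower, so calls were few in this fit. Bach2 (log2 -1.64, SE 0.42, adjusted p = 0.141), Satb1 (-1.37, SE 0.31, 0.118) and Tcf7 (-0.94, SE 0.17, 0.0797) did not pass. Foxo1, Slamf6 and Id3 had log2 changes of -0.54, -0.41 and -0.40, and Bcl6 one of 0.47, with adjusted p of 0.275 to 0.746. The median over the 8 members was -0.74, and that over all genes -0.01.

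The round pairs the libraries of this comparison, and with the round as a block 3442 genes passed and 7 of the 8 members were called lower. In that fit the adjusted p was 1.9e-08 for Lef1, 5.0e-06 for Bach2, 1.6e-05 for Satb1, 8.0e-05 for Tcf7, 0.0070 for Foxo1, 0.020 for Slamf6 and 0.040 for Id3, and Bcl6 was at log2 0.36 with 0.13. DESeq2, without a block, called Lef1, Bach2, Tcf7 and Satb1 (574 genes in all). The call of Lef1 without a block was lost when any of the 4 islet libraries was left out (log2 -2.90 to -3.25, adjusted p 0.071 to 0.13).

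The second comparison set spleen against islets within tetramer-positive cells. Spleen cells had more Lef1 (log2 2.71, SE 0.31, 6.52-fold), Id3 (2.54, SE 0.17, 5.82-fold), Tcf7 (1.73, SE 0.18, 3.31-fold) and Slamf6 (1.41, SE 0.17, 2.66-fold), with adjusted p of 0.00147 to 0.00466. Bcl6 fell by 2.62 (SE 0.73, adjusted p = 0.0449). These were 5 of 8 members, where 3004 of 11277 genes passed (26.6%). Foxo1 (log2 -0.45, SE 0.38), Satb1 (-0.46, SE 0.31) and Bach2 (-0.15, SE 0.42) did not pass, with adjusted p of 0.320 to 0.831.

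With the round as a block, 6215 genes passed, and Foxo1 (log2 -0.41, adjusted p 0.028) and Satb1 (-0.41, 0.025) were called lower in spleen as well. The Bcl6 call was lost without islet IGRP+ Round 2 (log2 -1.43, adjusted p 0.16), without spleen Round 1 (-2.11, 0.18) or Round 2 (-3.36, 0.099), and without either islet IGRP- library (0.057 and 0.059). Leaving out any 1 library kept the calls of Lef1, Id3, Tcf7 and Slamf6.

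The third comparison, spleen IGRP+ against islet IGRP-, differs in both tissue and tetramer binding, which cannot be told apart. It shares libraries with the first pair of comparisons and is given beside them. Id3 rose by 2.14 (SE 0.16, 4.40-fold), Slamf6 by 0.99 (SE 0.16) and Tcf7 by 0.79 (SE 0.17), whereas Satb1 fell by 1.82 (SE 0.32, 3.54-fold) and Bach2 by 1.78 (SE 0.42, 3.44-fold), with adjusted p of 0.00283 to 0.0319. These were 5 members, and 22.4% of genes passed. Lef1 (log2 -0.37, SE 0.29), Foxo1 (-0.99, SE 0.38) and Bcl6 (-2.16, SE 0.71) had adjusted p of 0.393, 0.113 and 0.0795. With the round as a block, all 8 members passed, and 6251 genes did. The calls of Tcf7, Slamf6 and Bach2 were each lost when any 1 of the 4 libraries compared was left out (adjusted p 0.059 to 0.16), and that of Satb1 without islet IGRP- Round 2 or either spleen library (0.069 to 0.096). The Tcf7 call was also lost with at most 2000 genes per cell in both tissues (log2 0.64, adjusted p 0.059).

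The genes around the members were followed in 6 lists. Counts without a block are to be read against the 1.19% of all genes called between the islet groups. In spleen against islet IGRP+ that share was 26.6%. Counts with the round as a block come from fits in which far more genes passed, as given above. They are to be read against those larger totals. Of 7 genes of the FOXO family and the FOXO1 targets, 3 fell and 0 rose from islet IGRP- to islet IGRP+ (median log2 -1.61, and 6 fell with the round as a block): S1pr1 (-3.38), the receptor for exit from tissue, Il7r (-3.74), the receptor of the survival cytokine IL-7, and Foxp1 (-1.56), a forkhead factor. In spleen against islet IGRP+, 4 of these 7 rose (median 1.00), with S1pr1 at 3.47, Il7r at 4.72 and Klf2 at 3.30 (4 rose and 2 fell with the round as a block), while Foxo1 itself did not rise. Of 8 tested TCF and LEF cofactors, Tle1 was the 1 called lower in islet IGRP+, on 90 and 278 UMIs in islet IGRP- against 0 and 1, too few for a fold. Tle3 was the 1 called higher in spleen than in islet IGRP+ (0.73, SE 0.14). Both encode Groucho-type corepressors, and with the round as a block 4 of the 8 were lower and 1 higher in islet IGRP+, and 3 were higher and 2 lower in spleen than in islet IGRP+.

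Between the islet groups, 0 genes of the next 4 lists passed in edgeR without a block, whereas with the round as a block 1 to 5 rose and 1 to 4 fell in each. Among 4 tested E and Id proteins, in spleen against islet IGRP+ the E protein gene Tcf3 rose (0.90, SE 0.16) and Id2, the Id gene of effector cells, fell (-0.96, SE 0.21), opposite to Id3. In the SLAM list of 8 genes, 3 rose and 1 fell in spleen against islet IGRP+: Cd84 (1.58) and Cd48 (1.24) were among those that rose, as Slamf6 did. The gene that fell was Sh2d2a (-3.02), a T cell adaptor gene that is no member of the SLAM family. Of 6 tested relatives and antagonists of Bach2, Bcl6 and Satb1, 1, the corepressor gene Bcor, rose in spleen against islet IGRP+ (0.92). Of 8 effector factors, with a median of 0.58 between the islet groups, 4 fell in spleen against islet IGRP+, led by Nfil3 (-3.56), Batf (-1.60) and Zeb2 (-0.73). With the round as a block, spleen against islet IGRP+ gave 4 higher and 3 lower in the SLAM list, 3 and 1 among the relatives and antagonists, and 1 and 4 among the effector factors.

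A clone was a set of cells of 1 library that share the nucleotide sequences of the third complementarity determining regions of 1 alpha and 1 beta chain. Cells with such a pair were split into clones of 1 cell, of 2 to 9 cells and of 10 or more cells. Islet IGRP- held 1389 and 2959 cells of single-cell clones and 887 and 1460 cells of clones of 10 or more, in 30 and 63 clones. Spleen IGRP+ held 252 and 162, and 1343 and 1396, the latter in 21 and 25 clones. Islet IGRP+ held 12 and 14 cells of single-cell clones, too few to test, and 579 and 1085 cells of 14 and 22 clones of 10 or more. The classes were compared in 1 fit with the library as a block. Its p-values measure how far class differences vary between libraries and leave out the spread between pools. Cells of a clone share their origin and were summed per library and class.

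In islet IGRP-, Lef1 was the member that differed most by clone size. It stood at 440 and 391 CPM in single-cell clones, at 42.4 and 41.8 in clones of 2 to 9 cells and at 37.5 and 25.4 in clones of 10 or more. Lef1 thus was already low in clones of 2 to 9 cells. From clones of 1 to clones of 10 or more it fell by 3.92 (SE 0.12, 15.1-fold; adjusted p = 6.24e-21), and from 1 to 2 to 9 cells by 3.46 (SE 0.12).

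Satb1 stood at 387 and 663, at 151 and 255, and at 133 and 236 in the same order of classes, a fall by 1.68 (SE 0.08) to the largest class. Bach2 went from 84.7 and 145 through 43.4 and 80.7 to 28.7 and 49.97 (log2 -1.71, SE 0.12), and Tcf7 from 195 and 223 through 105 and 161 to 110 and 87.2 (-1.26, SE 0.13). In each library every class of expanded clones was below the single-cell clones for these 3 genes. Id3 (-1.14, SE 0.18) and Slamf6 (-0.68, SE 0.11) also fell, with adjusted p of 1.26e-05 or less.

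Bcl6 went the other way, from 14.4 and 26.7 CPM in single-cell clones to 22.0 and 56.6 in clones of 2 to 9 cells and 21.2 and 38.3 in clones of 10 or more. It rose by 0.37 (SE 0.15, adjusted p = 0.0434) in the largest class and by 0.76 (SE 0.15, adjusted p = 1.9e-04) in the middle class. Foxo1 did not pass in either class (log2 -0.02, SE 0.09, and 0.16, SE 0.09). Of the 8 members, 7 passed for clones of 10 or more, where 40.1% of 10940 genes did, and 6 for clones of 2 to 9, where 28.8% did. The median over the members was -1.20 and -0.70, and that over all genes -0.02 and -0.01.

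The Bcl6 rise in clones of 10 or more was lost with DESeq2 (adjusted p 0.33), without either islet IGRP- library (0.13 and 0.35) and without the upper limit of genes per cell (0.36), and its rise in clones of 2 to 9 cells was lost without Round 2 (log2 0.43, adjusted p 0.35). The Id3 call in clones of 2 to 9 cells was lost without Round 1 (log2 -0.16, adjusted p 0.74) and with DESeq2 (0.11). Without a block for the library, Lef1, Bach2, Id3, Tcf7 and Satb1 passed for clones of 10 or more (1095 genes in all) and Lef1 and Satb1 for clones of 2 to 9 (489 genes). Larger clones held deeper cells here, with medians of 3811 and 3731 UMIs in single-cell clones and 4694 and 4492.5 in clones of 10 or more.

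In spleen IGRP+, Lef1 was again high in single-cell clones, at 472 and 412 CPM, and lower in clones of 2 to 9 cells (196 and 163) and of 10 or more (132 and 106). It fell by 2.12 (SE 0.12, 4.34-fold) from single-cell clones to clones of 10 or more. Satb1 went from 214 and 350 to 64.5 and 94.0 (log2 -2.03, SE 0.11), and Bach2 from 34.1 and 60.7 to 16.5 and 27.0 (-1.33, SE 0.23). For Lef1 the largest spleen clones lay above the 37.5 and 25.4 CPM of the largest islet IGRP- clones, whereas for Satb1 and Bach2 they lay below them.

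Foxo1 fell by 0.83 (SE 0.13) and Tcf7 by 0.58 (SE 0.15) in the largest spleen clones, whereas Id3 (-0.41, SE 0.18), Slamf6 (-0.02, SE 0.14) and Bcl6 (0.36, SE 0.54) did not pass. These were 5 of 8 members, with 15.5% of genes called. In clones of 2 to 9 cells, Satb1 (-1.92, SE 0.18), Bach2 (-1.75, SE 0.44) and Lef1 (-1.57, SE 0.17) fell, where 3.69% of genes were called. Without a block for the library, Lef1 and Satb1 passed for clones of 10 or more, and 0 members for clones of 2 to 9 cells. The Tcf7 call was lost with DESeq2 (adjusted p 0.064) and without either spleen library (0.17 and 0.25), and the Bach2 call in clones of 2 to 9 cells, on 2 and 7 UMIs there, without either spleen library (0.23 and 0.41) and with clone size counted over the round (0.10).

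Spleen single-cell clones differed from larger ones in their receptor. Only 19.4% and 22.8% of their cells used a TRAV16N alpha chain, the chain that all cells of spleen clones of 10 or more used, and their median depth was 3856.5 and 4138 UMIs against 2613 and 2837. In the 49 and 37 single-cell clones with TRAV16N, Lef1 stood at 420 and 442 CPM and Satb1 at 199 and 362, against 484 and 404, and 217 and 347, in those with other alpha chains. High Lef1 and Satb1 were thus measured in single-cell clones with either kind of alpha chain. TRAV16N alone does not set the target of a receptor. Whether the single-cell clones that used it share the target of the large clones was not tested. In islet IGRP-, TRAV16N was used by 10.9% and 11.4% of single-cell clones and 14.9% and 13.6% of cells of clones of 10 or more.

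The clone size effect (clones of 10 or more against 1 cell) was then compared between spleen IGRP+ and islet IGRP-. It differed for Lef1 by 1.80 (SE 0.16, adjusted p = 6.37e-09), for Tcf7 by 0.68 (SE 0.20, 0.0280) and for Slamf6 by 0.66 (SE 0.18, 0.0167), in each case with a value nearer 0 in spleen. Foxo1 differed by -0.81 (SE 0.16, 9.4e-04), from -0.83 in spleen and -0.02 in islet IGRP-. These were 4 members, and 7.79% of genes passed. For Bach2 (0.39, SE 0.24), Id3 (0.73, SE 0.25), Satb1 (-0.35, SE 0.13) and Bcl6 (-0.01, SE 0.68), the difference did not pass. Without a block for the library, 29 genes and 0 members passed. Leaving out spleen Round 1, spleen Round 2 or islet IGRP- Round 2 ended the calls of Tcf7 (adjusted p 0.21 to 0.33) and Slamf6 (0.053 to 0.37), as did DESeq2 (0.32 and 0.14), and Tcf7 was also lost with DESeq2's size factors in edgeR (0.053).

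In islet IGRP+, clones of 10 or more were compared with clones of 2 to 9 cells, which were 82 and 92 cells. No member passed (0 of 8, with 0.201% of genes called by edgeR and 859 of 10940 at an unadjusted p under 0.05). Id3 (log2 -1.19, SE 0.41, unadjusted p 0.0068) and Slamf6 (-0.56, SE 0.20, unadjusted p 0.010) were the 2 members under 0.05 before adjustment, with adjusted p of 0.375 and 0.430, and DESeq2 called 0 members as well.

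**Figure D2:**
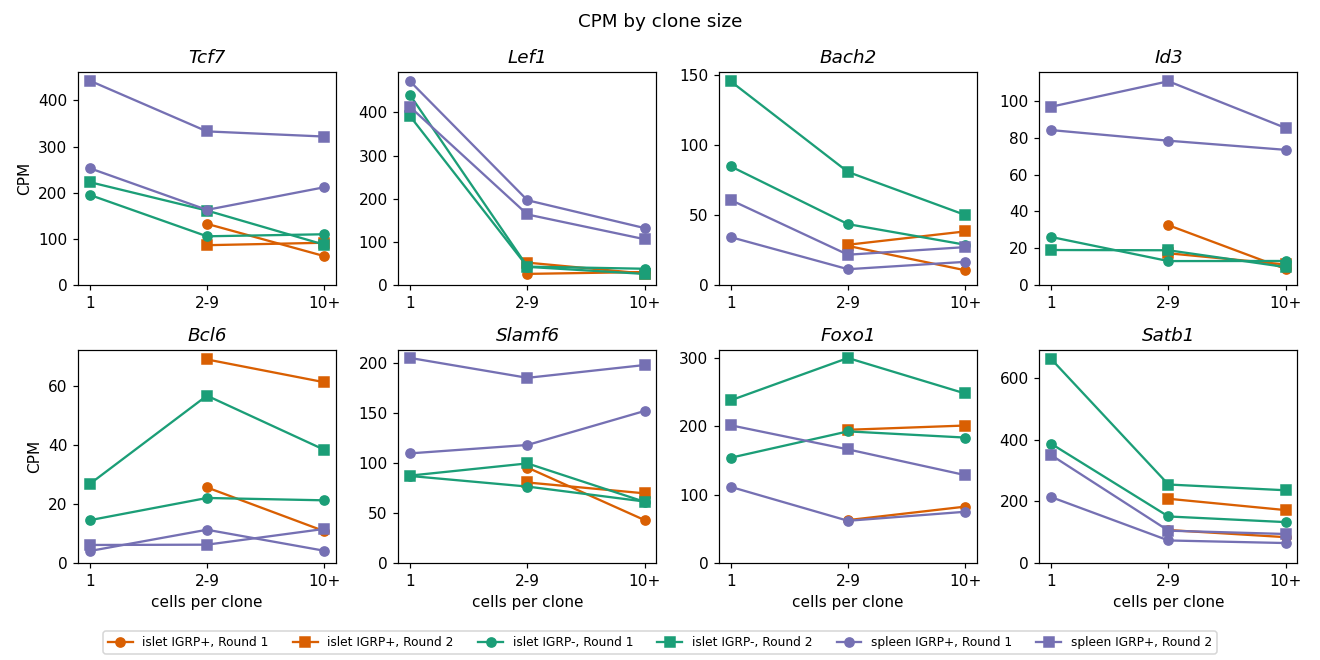
Levels of the 8 genes by clone size, in CPM on linear axes that start at 0, with 1 line per library; classes with fewer than 20 cells, the single-cell clones of islet IGRP+, are not drawn. Lef1, Satb1 and Bach2 drop from clones of 1 cell to larger clones in both tissues, and Lef1 stays higher in spleen IGRP+ (132 and 106 in clones of 10 or more) than in the islets.

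Among the listed partners, to be read against the 40.1% of all genes called in islet IGRP- and the 15.5% in spleen, all 7 genes of the FOXO list fell from single-cell clones to clones of 10 or more in islet IGRP- (median -2.51), led by S1pr1 (-3.47), Klf2 (-2.51), a factor that drives S1pr1, and Il7r (-3.19), whereas Foxo1 itself did not pass. In spleen 3 of 7 fell, Foxp1 (-2.03), Ccr7 (-2.93) and Il7r (-0.82), and the effect differed between spleen and islet IGRP- for Klf2 (by 2.70), S1pr1 (by 3.36) and Il7r (by 2.38). Of 8 effector factors, 6 rose in clones of 10 or more in each of the 2 groups, among them Tox (2.13 and 2.08), Eomes (1.77 and 1.80) and Zeb2 (2.09 and 2.60). Prdm1, which encodes Blimp-1, rose by 3.25 (SE 0.18) in islet IGRP- and by 2.52 (SE 0.47) in spleen, and Id2 rose by 1.45 and 0.80, opposite to the fall of Id3 in islet IGRP-. In the SLAM list, 4 of 7 rose and 1 fell in islet IGRP-, and 6 of 7 rose in spleen, among them Cd48 (0.96 and 1.21) and Sh2d1a (1.01 and 1.28), where Slamf6 fell and did not pass, respectively.

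The group comparisons were repeated within clones of 10 or more cells. Among islet cells with 1 alpha and 1 beta chain, tetramer-positive ones belong nearly all to expanded clones, with 12 of 673 and 14 of 1191 in single-cell clones. Of the tetramer-negative ones, 1389 of 2992 and 2959 of 5483 were in single-cell clones. Such a pair was found in 55.9% and 74.5% of islet IGRP+ cells and 46.5% and 61.4% of islet IGRP- cells. The shares in spleen IGRP+ were 47.1% and 68.6%, and cells without a pair are left out here. Between islet IGRP+ and islet IGRP- clones of this size, 0 of 8 members passed, and 0.0193% of 10337 genes did (2 genes by edgeR, 310 at an unadjusted p under 0.05, 98 with the round as a block and 18 with DESeq2). Of the members, 0 had an unadjusted p under 0.05 and DESeq2 called 0. Lef1 stood at 29.9 and 26.2 CPM in islet IGRP+ clones against 37.5 and 25.4 in islet IGRP- clones, a log2 change of -0.08 (SE 0.32). Tcf7 stood at 62.4 and 91.4 against 110 and 87.2 (-0.29, SE 0.25). The Lef1 ranges overlapped, as did those of Tcf7.

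Satb1 (-0.46, SE 0.34), Bach2 (-0.62, SE 0.51) and Foxo1 (-0.55, SE 0.37) had negative values, which leaving out 1 library moved between -0.92 and -0.07, -1.70 and -0.06, and -1.18 and -0.12, and the members' adjusted p were 0.958 to 0.989. With the round as a block 0 members passed either, and Foxo1 came nearest (-0.61, adjusted p 0.098). The Lef1 change was thus -3.08 (SE 0.32) in all cells and -0.08 (SE 0.32) within expanded clones. Both values share cells, and the difference between them was not tested. The expanded clones of both islet groups also lay at the Lef1 level taken above as a bound for free RNA. At that level, the value within expanded clones cannot tell like expression from a lack of it.

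Spleen and islet IGRP+ still differed within clones of 10 or more. Id3 (log2 2.87, SE 0.24, 7.32-fold), Lef1 (1.97, SE 0.32, 3.90-fold), Tcf7 (1.66, SE 0.25, 3.15-fold) and Slamf6 (1.51, SE 0.21, 2.85-fold) were higher in spleen, with adjusted p of 0.00266 to 0.0111. These were 4 of 8 members, and 20.8% of genes passed. Bcl6 (-2.31, SE 0.77) had an adjusted p of 0.079. With the round as a block (4931 genes), Bcl6 (2.5e-05), Satb1 (-0.77, 7.9e-04) and Foxo1 (-0.56, 0.014) were called lower in spleen too. The calls of Tcf7 and Slamf6 were lost without spleen Round 2 (adjusted p 0.062 and 0.056) and that of Lef1 without spleen Round 1 (log2 1.67, adjusted p 0.068).

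**Figure D3:**
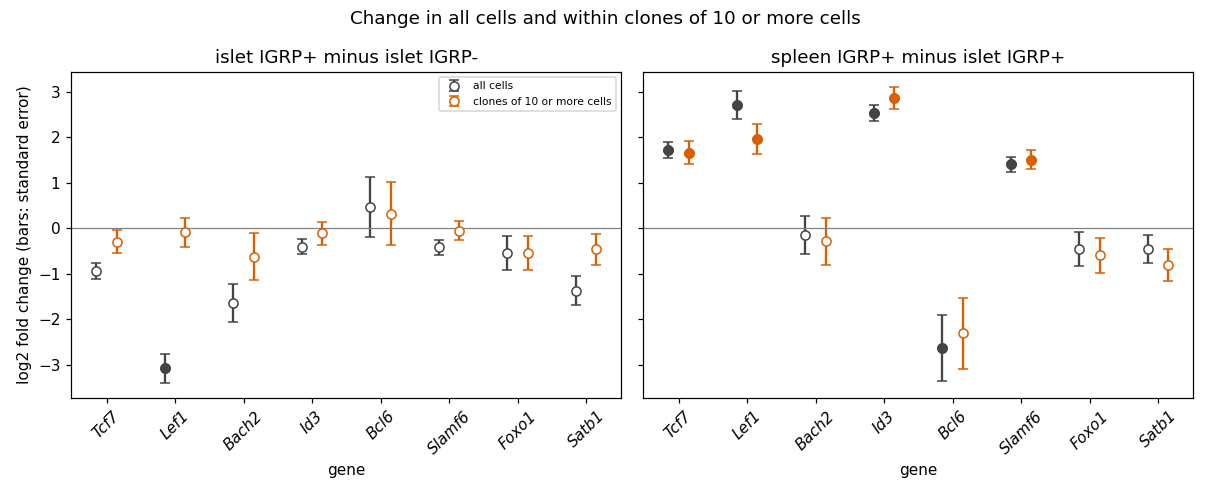
Log2 fold change of the 8 genes (points) with its standard error (whiskers) in all cells and within clones of 10 or more cells, for islet IGRP+ minus islet IGRP- on the left and spleen IGRP+ minus islet IGRP+ on the right. Filled points passed an adjusted p of 0.05. The Lef1 change between the islet groups is -3.08 in all cells and -0.08 within expanded clones. Expanded clones of both islet groups lie at the Lef1 level taken as a bound for free RNA. The spleen minus islet change of Lef1 is 2.71 and 1.97 and that of Tcf7 1.73 and 1.66.

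Clones with cells in both tissues of the same round allowed the same receptor to be followed, and 31 and 35 such clones were found, with 632 and 1134 cells in islet IGRP+ and 1375 and 1445 in spleen. Summed over these cells, Id3 (log2 2.82), Lef1 (1.96), Tcf7 (1.67) and Slamf6 (1.51) were higher in spleen (adjusted p 0.0052 to 0.018), and Bcl6 did not pass (-2.34, 0.098). With the round as a block, a setting added after the data were seen, Bcl6 (4.7e-21), Satb1 (-0.81, 6.6e-07) and Foxo1 (-0.51, 0.0023) were lower in spleen, and Bach2 did not pass (-0.29, 0.23). That fit has few libraries and leans on a spread estimated from other genes. Its small p-values are thus a weak measure of how a member varies between pools. Bcl6 had 35 and 71 UMIs in the whole spleen libraries.

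Single clones showed the same, as far as 20 or more thinned cells in each tissue allowed, which held for 6 clones in Round 1 and 11 in Round 2. Tcf7 was detected in a larger share of spleen than islet cells in 5 of 6 and 11 of 11 clones, with medians over clones of 4.95% in islets and 16.9% in spleen in Round 1 and of 5.80% and 31.4% in Round 2. Lef1 and Slamf6 were higher in spleen in 6 of 6 and 11 of 11 clones, and Id3 in 5 of 6 and 8 of 11. Bcl6 was higher in islets in 3 of 6 and 10 of 11 clones, and Satb1 in 4 of 6 and 10 of 11. Foxo1 was higher in islets in 2 of 6 and 9 of 11, and Bach2 in 1 of 6 and 7 of 11, so the rounds differed for both. Clones of 1 pool are not independent replicates, and these counts carry no test.

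**Figure D4:**
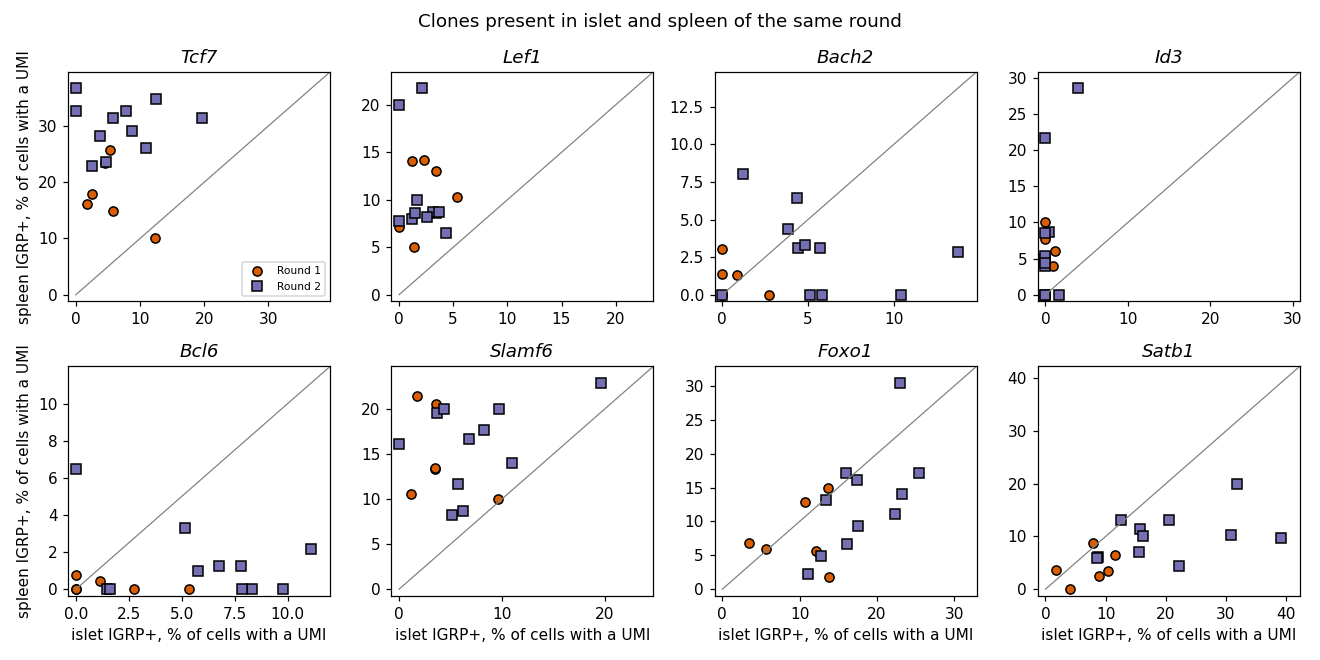
Share of cells with a UMI, in percent of cells thinned to 1000 UMIs, in islet IGRP+ (horizontal) and spleen IGRP+ (vertical), for each clone with 20 or more such cells in both tissues; circles are 6 clones of Round 1, squares 11 clones of Round 2, and the line marks equal shares. For Lef1 and Slamf6 all 17 clones lie above the line, for Tcf7 16, while most Bcl6 and Satb1 points of Round 2 lie below it.

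The shares within single clones were described for clones of 20 or more cells. In islet IGRP+ Round 2, Tcf7 was detected in 0% of the cells of the lowest of 16 clones (0 of 52, exact 95% binomial upper limit 6.85%) and in 19.6% of the highest (10 of 51, interval 9.82% to 33.1%), with a median of 8.25%. In spleen Round 2, Id3 ranged from 0% in the lowest of 17 clones to 28.6% in the highest (10 of 35, interval 14.6% to 46.3%), with a median of 4.95%. Lef1 reached at most 5.36% in any islet IGRP+ clone and 10.0% in any islet IGRP- clone, against 27.0% in spleen (10 of 37, interval 13.8% to 44.1%). The highest and lowest clones were picked by these values, the intervals cover counting error only, and whether clones differ was not tested.

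Detection of 2 genes in the same cell was compared with the product of their shares in each library, in cells thinned to 1000 UMIs, so that a ratio of 1 means no association. Most pairs shared few cells, and ratios of rare genes rest on single cells. Of 28 member pairs, 6 had a ratio above 1 in all 6 libraries, and 5 of these hold Tcf7: with Lef1 (median ratio 1.32, range 1.05 to 2.80), Id3 (1.58, on 5 and 4 cells in the islet IGRP+ libraries), Slamf6 (1.30), Bach2 (1.24) and Satb1 (1.13). The sixth was Bach2 with Slamf6 (1.22). The highest ratios of Tcf7 with Lef1 and Bach2 rest on 4 and 5 cells, each against 1.43, in islet IGRP+ Round 1. Lef1 detection in islet IGRP+ was not read as expression above. At 2000 UMIs per cell, 6 pairs again passed, of which Tcf7 with Lef1, Id3 and Slamf6 and Bach2 with Slamf6 were the same and Tcf7 with Bcl6 and Lef1 with Bach2 replaced Tcf7 with Bach2 and Satb1.

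Tcf7 and Slamf6 were found together in 14 islet IGRP+ cells of Round 1 where the product gave 3.86, in 16 against 9.96 in Round 2, and in 94 against 67.5 and 117 against 96.5 in islet IGRP-. In spleen the counts were 109 against 99.1 and 122 against 109, nearer to 1. Lef1 and Satb1 went together in islet IGRP- (492 cells against 302, and 831 against 587) and in spleen (59 against 48.8, and 46 against 30.4), while islet IGRP+ had 1 cell against 2.75 in Round 1 and 13 against 7.14 in Round 2. At most 6 of the 8 genes were detected in 1 thinned cell, and 0 of 8 were detected in 40.6% and 30.1% of islet IGRP- cells, 68.2% and 48.9% of islet IGRP+ cells and 45.5% and 38.3% of spleen cells.

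Against 3 genes of T cell state, Lef1 was detected less often than the product in cells with Pdcd1, the inhibitory receptor PD-1, in all 6 libraries (49 cells against 243 and 53 against 281 in islet IGRP-). Tcf7 was near or below the product with Pdcd1 (median ratio 0.84, from 0.72 to 1.04). With Havcr2, which encodes TIM-3 of terminally exhausted cells, Tcf7 was found in 2 and 6 islet IGRP- cells against 14.7 and 29.7, and in 0 and 2 islet IGRP+ cells against 3.57 and 8.17. Foxo1 differed from Tcf7 here, with 23 and 63 cells against 15.3 and 43.8 in islet IGRP-.

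With Mki67, a marker of dividing cells, Tcf7 was below the product in all 6 libraries (median ratio 0.57), as were Lef1 (0.32) and Satb1 (0.51). At 2000 UMIs per cell, Satb1 was again below it in all 6, whereas Tcf7 was above it in 1 library (ratio 1.01) and Lef1 in 2 (up to 1.24). These ratios describe cells of mixed clones within a library and carry no test.

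**Figure D5:**
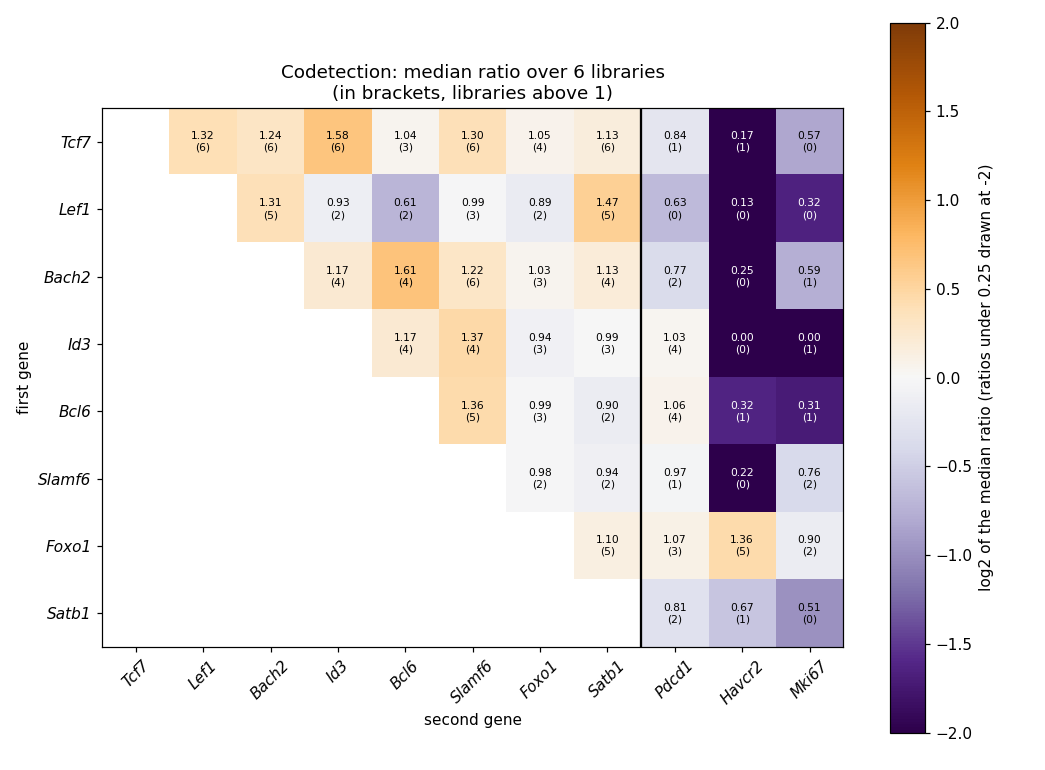
Codetection of each of the 8 genes (rows) with the others and with 3 state genes (columns right of the line), as the median over 6 libraries of the cells with both genes over the product of their shares, with the number of libraries above 1 in brackets. Orange marks ratios above 1 and purple ratios below 1 on a log2 colour scale; Tcf7 is above 1 in all 6 libraries with 5 members, and Havcr2 and Mki67 columns are mostly purple.

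The genes whose counts ran most like a member's across single cells were weakly correlated. Over 1842 genes found in at least 5% of thinned cells of every library, Pearson's r averaged over the 6 libraries was at most 0.14, for Lef1 with Rps24, a ribosomal protein gene. Tcf7 was the gene most like Id3 (0.06) and Slamf6 (0.06), and the gene most like Bcl6 was Prkca (0.06), like Foxo1 Iqgap1 (0.04), like Satb1 Rps24 (0.09), like Tcf7 Tmsb10 (0.08) and like Bach2 Rps29 (0.04). With counts this sparse, such values are no finding.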

How the data were processed

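For 3 groups and 2 rounds, 6 scRNA-seq and 6 scTCR-seq libraries were used. The authors deposited raw UMI counts per gene and cell, and TCR contigs with their UMI counts, made with Cell Ranger on mm10. The count file header names version 5.0.1, whereas the paper names another. The deposited files also hold the gene symbols and barcodes. Cells with under 5% mitochondrial UMIs and 200 to 3500 (islet) or 200 to 2000 (spleen) genes were kept, 24117 in all. The upper limit of genes thus differed by tissue in the reported fits. With it, spleen single-cell clones held 252 and 162 cells, against 264 and 197 without it. Spleen clones of 10 or more held 1343 and 1396 cells with it, against 1372 and 1458 without it. No correction for free RNA was made and no doublet caller was run, but the fits were repeated without cells with more than 1 productive beta chain.

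UMIs were summed per library, or per library and clone size class of at least 20 cells, and tested with edgeR 4.0.16 (TMM, filterByExpr, quasi-likelihood test, Benjamini-Hochberg over all genes tested) in R 4.3.3, with DESeq2 1.42.0 and limma 3.58.1 installed beside it. Group fits had no block; clone size fits had the library as a block. The round pairs the libraries, since each round was 1 pool of mice: round deviations of the groups correlated with Pearson r of 0.694, 0.717 and 0.630 over 11277 genes. The fits were also run on simulated counts in which changed genes had been set. No round or library effect was simulated, so the choice between fits with and without a block was not tested. Thinning, shares with exact (Clopper-Pearson) 95% intervals and codetection used Python 3.11.15, numpy 2.4.6, pandas 2.3.3 and scipy 1.17.1, and figures matplotlib 3.10.9.

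Named are the 8 members, at most 3 called genes per partner list and comparison (lowest adjusted p), the 3 genes most like each member (the first or fewer are given) and 3 state markers. A further gene of these lists is not reported here. The members, lists and comparisons were chosen with earlier results of these data known. A call is an adjusted p under 0.05. Intervals cover counting error only.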

Additional observations from a re-analysis of the deposited data

Results flagged for a closer look

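The clone size effect, clones of 10 or more cells against clones of 1 cell, differed between spleen IGRP+ and islet IGRP- for 4 of the 8 genes in the test of the difference itself (edgeR, library as a block), where 852 of 10940 genes passed (7.79%). The difference, spleen minus islet on the log2 scale, was 1.80 for Lef1, 0.68 for Tcf7, 0.66 for Slamf6 and -0.81 for Foxo1. Spleen and islet also differed in the receptors of their single-cell clones, of which 19.4% and 22.8% used TRAV16N in spleen and 10.9% and 11.4% in islet IGRP-; its part in the differences was not tested. The differences of Tcf7 and Slamf6 were lost with DESeq2 (adjusted p 0.32 and 0.14) and when spleen Round 1, spleen Round 2 or islet IGRP- Round 2 was left out, and without the library as a block 0 of the 8 genes passed.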

How the results depend on the processing

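With 2 pools per group, the block for the round or library decided most counts of calls. Of 1232 values of the 8 genes under other settings, 1076 kept their direction and side of the threshold, 68 lost and 57 gained a call, and 31 changed direction, none of them called in the reported fit. Where a cause is not stated, the cause was not tested. Sparse counts limit Bcl6 in spleen (35 and 71 UMIs) and Id3 in islet IGRP+ (73 and 98). Settings that combined the round as a block with only the 4 libraries compared, or with shared clones, were chosen after seeing the data. The shares of cells with a UMI, 24 in all, moved in 23 cases at 2000 UMIs per cell and in 24 without thinning, as deeper cells show more genes.

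Between islet IGRP+ and islet IGRP-, 134 genes and 1 member were called, against 3442 and 7 with the replicate block, 574 and 4 with DESeq2, 711 and 4 without a filter on low counts, 24 genes with only the 4 libraries compared, and 3649 and 7 with both block and 4 libraries. Between spleen and islet IGRP+, 3004 genes became 6215 with the replicate block, 5849 with block and 4 libraries, 1622 in shared clones and 5094 in shared clones with the block. Between spleen and islet IGRP-, 2530 genes and 5 members became 6251 and 8 with the replicate block and 6854 and 8 with block and 4 libraries.

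For clone size without the replicate block, islet IGRP- clones of 10 or more gave 1095 genes, and those of 2 to 9 gave 489 and 2 members (1923 genes with DESeq2). Without the block, spleen clones of 10 or more gave 545 genes and 2 members, and those of 2 to 9 gave 67 and 0. In islet IGRP+, 22 genes became 0 without the block, 88 without a filter, 98 without an upper limit of genes per cell, 35 with the top chain kept and 115 with clone size over the round. The difference of the clone size effect went from 852 genes to 29 genes and 0 members without the block and 1682 genes without an upper limit of genes. Within clones of 10 or more, islet IGRP+ against islet IGRP- gave 98 genes with the replicate block, 18 with DESeq2 and 72 without a filter, and spleen against islet IGRP+ gave 4931 and 7 members with the block.

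Leaving out 1 library at a time gave these ranges of genes and members called: 0 to 30 and 0 to 1 between the islet groups, 892 to 2050 and 4 to 5 for spleen against islet IGRP+, and 382 to 2547 and 1 to 6 for spleen against islet IGRP-. For islet IGRP- clones they were 2156 to 4611 and 6 to 7 (10 or more) and 1470 to 3336 and 5 to 6 (2 to 9), for spleen clones 666 to 1832 and 4 to 5, and 150 to 484 and 2 to 5, and for islet IGRP+ clones 5 to 116 and 0. The difference of the effect had 234 to 1030 and 2 to 5, and within clones of 10 or more the ranges were 0 to 2 and 0 between the islet groups and 360 to 1479 and 2 to 5 between the tissues. A class or group left with 1 library was assumed to vary like the others.

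Uncalled values that changed direction did so as follows. Without an upper limit of genes, Bach2 was 0.0296 (spleen against islet IGRP+), Slamf6 0.0535 (spleen, 10 or more), Id3 0.0437 (spleen, 2 to 9) and Bcl6 0.2368 (difference of the effect). Without a filter, Slamf6 was 0.0089 (spleen, 10 or more) and Bcl6 0.0324 (difference), and Bcl6 was 0.0606 without the block (difference). With the top chain kept, Foxo1 was 0.0031 (islet IGRP-, 10 or more), and with clone size over the round Id3 was 0.1018 (spleen, 2 to 9) and Satb1 0.1606 (islet IGRP+).

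Leaving out 1 library moved Bcl6 from -0.7331 to 1.1101 between the islet groups, and for spleen against islet IGRP+ Bach2 from -0.5787 to 0.5312 and Foxo1 from -0.8621 to 0.1426. By clone size, the ranges were -0.1018 to 0.0813 for Foxo1 and -0.3609 to 0.0384 for Slamf6 in islet IGRP-, and -0.2342 to 0.7623 and -0.1844 to 1.1068 for Bcl6 and -0.2075 to 0.2003 for Slamf6 in spleen. In islet IGRP+ they were -0.8301 to 0.0986 for Tcf7, -0.9641 to 0.4790 for Lef1 and -1.1584 to 0.4256 for Bach2, and for the difference -0.6061 to 0.3874 for Bcl6. Within clones of 10 or more they were -0.3965 to 0.3104 for Lef1, -0.3808 to 0.1900 for Id3, -1.2512 to 1.0173 for Bcl6 and -0.3136 to 0.1541 for Slamf6 between the islet groups, and -0.8459 to 0.7823 for Bach2 and -1.0223 to 0.0258 for Foxo1 between the tissues.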
